A study of Mus musculus with 12 samples.

Results

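Of the 55681 probes for mouse transcripts on the array, 16181 carry a name that starts with A_30_P and are placed on a strand of a chromosome interval of the mm9 build instead of on a gene's transcript, and these long intergenic probes are described here. They were taken by those names, not by any measured value. Their intervals numbered 3540, of which 1067 had probes for both strands, 1251 for the forward strand (F in the layout's names) and 1222 for the reverse strand (R). The data come from the apex of the heart of 15-week male C57BL/6J mice with 1 altered and 1 unaltered (+) copy of Nkx2-5, the gene of a homeodomain transcription factor of heart muscle. The 4 groups were control/+, a knock-in line in which the isoleucine at the site was changed to isoleucine so that the protein stays the same, I183M/+ and I183P/+, in which it was replaced by methionine or proline, and delta/+, in which Nkx2-5 was deleted. Each group had 3 single-colour Agilent arrays. All 4 groups carry a modified allele over an unmodified one, and as the labels leave unsaid how many animals stand behind the 3 samples of a group, the p-values cover only the spread between these samples, which may be technical.

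Long intergenic non-coding RNAs are transcribed from the DNA between protein-coding genes, often capped, spliced and polyadenylated like a messenger RNA but without a translated reading frame. Many are made at low levels and in few tissues, and some act on the chromatin or transcription of neighbouring genes. A probe for an interval asks whether RNA of that strand is present, and as the true ends of such a transcript are often unknown, several probes along the interval and probes for both strands are used. The sequences of the probes and intervals were not used here, so no sequence is shown.

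Several facts of the arrays bear on what follows. On control replicate 1, 98.9% of the long intergenic probes and 99.1% of all other probes were called well above background by the scanner software, and that array was left out unless stated, which leaves 2 control arrays. Control 1 to 3, I183M 1 to 3 and I183P 1 and 2 were on slide 1, and I183P 3 and delta 1 to 3 on slide 2, so no slide held both control and delta arrays. The probe for Nkx2-5 read 4.73 ± 0.07 (SD, n = 2) in control, 4.78 ± 0.05 (n = 3) in I183M, 4.81 ± 0.13 (n = 3) in I183P and 4.03 ± 0.10 (n = 3) in delta, as log2 levels relative to each array's 75th percentile, the scale of every level below. Delta was lower than control by a log2 difference of -0.70 (SE 0.11, adjusted p = 0.0553), with no overlap of the groups. An exact two-sided permutation test of delta against I183M gave p = 0.1, the smallest that 3 against 3 arrays allow. Control 1 was not level with the other arrays on this scale. Its 75th percentile intensity was 1397, against 436 to 570 on the others. Its median long intergenic intensity was 422, against 9.36 to 49.4. The brightest long intergenic probe read 7.31 on it, against 8.54 to 9.03 on the others. Bright probes thus tended to read lower and dim ones higher on control 1, which limits its readings below. All 9 ventricular muscle genes checked were on every array, at a median level of 9.62. Of markers of other cells, all 5 fibroblast, 5 endothelial, 4 smooth muscle and pericyte, 4 atrial and 3 measured macrophage genes were on every array, as were 2 of 4 skeletal muscle, 1 of 4 lymphocyte and 0 of 3 adipocyte genes. Of genes of other tissues, 1 of 4 lung and thymus and 1 of 4 testis genes were on every array. These were Dntt at a mean of -3.22 and Prm2 at -2.53. Whether a call at such dim levels reflects a transcript was not tested. The mean of the 4 lymphocyte markers relative to their own average lay between -0.46 and -0.15 on the control arrays and between 0.07 and 0.79 on the delta arrays, and that of the 4 atrial markers ranged from -3.02 to 1.15 in control and from -0.69 to 2.65 in delta. The part of these in the differences below was not tested.

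The intervals were spread over 20 chromosomes, 19 autosomes and X. They ranged from 62 to 7128487 bases, with quartiles of 787, 7316 and 21816 bases, and the second longest measured 538251 bases. A total of 2101 intervals overlapped another one in the list, so that some probes in different intervals report on the same stretch of DNA. An interval's strand had between 1 and 10 probes: 690 strands had 1, 1809 had 3 and 973 had 5. The probes were split almost evenly between strands, with 8171 on F and 8010 on R.

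Long intergenic probes were detected far less often than other probes on each of the 11 arrays. The share well above background was 39.8% and 32.3% on control 2 and 3, against 64.6% and 60.6% of other probes. It was 60.9%, 33.7% and 30.3% on I183M 1 to 3, and 29.1%, 31.3% and 43.3% on I183P 1 to 3. On delta 1 to 3 it was 37.4%, 63.8% and 41.8%. I183M 1 and delta 2 stood apart from the other arrays in this respect, and they did so for other probes too, at 77.2% and 79.6% against 58.4% to 66.5% on the rest. The groups overlapped, so no group had a detected share of its own.

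Across the 11 arrays, 3757 long intergenic probes (23.2%) were well above background on every array, against 54.2% of other probes. At the other end, 3955 (24.4%) were above background on no array, against 14.0% of other probes. The remaining 8469 (52.3%) were called on some arrays and not on others, against 31.8% of other probes. Of these, 2890 were called on I183M 1, delta 2 or both and on no other array. Strand made little difference, as 22.9% of F probes and 23.5% of R probes were on every array. By chromosome, the share on every array ran from 15.2% on chromosome 9 to 31.4% on chromosome 19. By the interval's length it was 19.2% for intervals of up to 2000 bases, 24.7% for longer ones of up to 20000 bases and 23.5% for those beyond.

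Counted by interval, 1707 of 3540 (48.2%) had at least 1 probe on every array, and 179 had none on any array. Probes of the same strand of an interval often disagreed. Of the 1809 strands with 3 probes, 160 had all 3 on every array, 556 had 1 or 2, and 1093 had none. Of the 973 strands with 5 probes, 46 had all 5 on every array, 480 had 1 to 4 and 447 had none. The probes on every array were also dimmer than their counterparts: their median level was -1.52, against 0.84 for other probes on every array. Of the 3757, 989 read above the 75th percentile of their arrays on average. No long intergenic spot was saturated. Levels of different probes depend on their sequences as well as on RNA, so they rank signals, not amounts of RNA.

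The brightest long intergenic signals came from R probe A_30_P01018056 at chr2:168804720-168854970. It read 8.92 and 8.99 on control 2 and 3, 8.83, 8.95 and 9.03 on I183M 1 to 3, 8.89, 8.93 and 8.54 on I183P 1 to 3 and 8.81, 8.87 and 8.85 on delta 1 to 3. At a mean of 8.88 it ranked 90th among all probes of the array. The groups overlapped, and the lowest value was that of I183P 3. The other probes of that interval were dim: its other R probes averaged -3.21 and -5.98, and its F probes averaged -1.71, -2.29 and -3.24.

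The interval at chr17:17481706-17482457 was different, because all 3 of its R probes were bright, at means of 8.55, 8.15 and 7.58. It spans 752 bases and holds 2 of the 10 brightest probes. R probe A_30_P01025225 at chr4:33364774-33364898, the only probe of an interval of 125 bases, averaged 8.64. F probe A_30_P01031448 at chr14:78924115-78938125 averaged 8.47, while the 6 other F probes and the 6 R probes of its interval averaged between -6.68 and -3.32 and none of them was on every array. F probe A_30_P01020128 at chr4:141527564-141547339 averaged 8.40, and the R probe of the interval averaged -4.03. The other members of the 10 brightest were an F probe at chr6:83368261-83407280 (8.26), an R probe at chr12:73838608-73862621 (8.09), an F probe at chr6:116092274-116144199 (7.97) and an F probe at chr17:39982023-39983277 (7.88). These bright signals were steady across groups. Over the 11 arrays each of the 10 spanned between 0.25 and 0.49 log2 units, and their differences between groups lay between -0.27 and 0.16, with no adjusted p under 0.374 in any of the 6 comparisons.

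The 100 brightest long intergenic probes lay in 77 intervals, 56 on F and 44 on R. In 15 of these intervals at least 2 probes were among the 100, which accounts for 38 probes. Only 27 long intergenic probes were among the 1000 brightest of the array.

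Where an interval had probes for both strands, the strands were compared by detection. Of the 1067 such intervals, 340 (31.9%) had a probe on every array for both strands. In 234 the F strand had one and the R strand did not, in 223 the R strand had one and the F strand did not, and in 270 neither had one. In 8 intervals no probe of either strand was called on any array. A complete difference, with 1 strand on every array and all probes of the opposite strand on none, was found in 19 intervals, 10 for F and 9 for R. This count rests on few intervals and on 1 array in particular, since it was 29 without delta 2.

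Among the intervals with F alone, chr7:69024136-69131056 had the brightest probe, A_30_P01032698. It read 2.48 and 2.60 on control 2 and 3, 2.61, 2.45 and 2.58 on I183M 1 to 3, 2.33, 2.48 and 2.52 on I183P 1 to 3 and 2.46, 2.43 and 2.45 on delta 1 to 3. The groups overlapped. Of its 5 F probes 3 were on every array, and the brightest of its 4 R probes averaged -6.29. The next were chr13:48576557-48581632, where 2 of 5 F probes were on every array and the best averaged -0.86, chr6:149221500-149237350 at -1.98, chr8:74431707-74442440 at -2.05 with 4 of 5 F probes on every array, and chr1:44915250-44944125 at -2.63.

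Among those with R alone, A_30_P01031145 at chr1:52507332-52514490 was the brightest. It read 2.83 and 2.93 on control 2 and 3, 2.67, 3.03 and 3.01 on I183M 1 to 3, 2.97, 2.77 and 2.98 on I183P 1 to 3 and 2.91, 2.97 and 3.15 on delta 1 to 3. The groups overlapped, 3 of the 4 R probes were on every array, and the F probe averaged -6.20. A_30_P01032132 at chr10:83325890-83402790 read 2.11 and 2.36 in control, 2.28, 2.40 and 2.33 in I183M, 2.72, 2.92 and 2.41 in I183P and 2.94, 2.82 and 3.03 in delta. All 3 delta arrays lay above both control arrays, but the log2 difference of 0.70 (SE 0.16) did not pass the test (adjusted p = 0.108). The other R-only intervals named by their brightness were chr13:74568375-74601000 (0.01), chr13:22110479-22116629 (-0.27) and chr1:185808525-185826139 (-2.32).

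Of the intervals with both strands on every array, the one whose dimmer strand was brightest was chr12:73838608-73862621. Its best F probe, A_30_P01020570, averaged 7.79 and its best R probe, A_30_P01031264, averaged 8.09. The other 4 F probes averaged between -6.21 and -1.70 and the other 4 R probes between -6.29 and -0.63. At chr14:33923944-34003394 the best F and R probes averaged 5.14 and 4.22, and at chr5:34696192-34722842 they averaged 5.86 and 3.56. At chr12:119825125-119850750, with 1 probe a strand, they read 6.86 and 3.13. At chr17:39960567-39992817 all 4 F and all 5 R probes were on every array, the best at 4.56 and 2.98. In the comparison of delta with control, the 20 probes named for their strands differed by between -0.55 and 0.70, and none passed the test.

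For the comparisons between groups, 8055 long intergenic probes (49.8% of all 16181) passed the filter, a signal well above background on 3 or more of the 11 arrays with no outlier mark, and were tested together with the other probes, 36105 in all. A probe that passed because only 1 group lit it had to differ between groups, so counts over these 8055 do not speak for the rest. In bulk tissue, fewer cells with a transcript and less of it per cell cannot be told apart. A probe is called below where its adjusted p in the limma fit was under 0.05.

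In I183M against control, 0 of 8055 long intergenic probes were called, and 0% of all 36105. The median log2 difference was 0.26 over the long intergenic probes and 0.04 over all tested probes, and 723 long intergenic probes (8.98%) had an unadjusted p under 0.05, against 5.91% of other probes. With quantile normalization in place of the 75th percentile both medians fell below 0, to -0.05 and -0.04, so the direction of the median rests on the scaling. In I183P against control, 0 of 8055 were called while 0.0138% of all probes were. The medians were 0.03 and -0.01, and 417 long intergenic probes (5.18%) had an unadjusted p under 0.05, against 10.2% of other probes. Between I183P and I183M, 0 of 8055 and 0% of all probes were called, with 998 long intergenic probes at an unadjusted p under 0.05 and medians of -0.22 and -0.07. The detected share on I183M 1 was 60.9%, and these medians are not given without that array. The probes with the smallest p between I183P and I183M were A_30_P01023905, described below with delta, A_30_P01028804 at chr11:22510175-22522025 (F), at least 9.76-fold lower in I183P, and A_30_P01018549 at chr15:62164419-62165018 (F), at least 11.6-fold lower, each with an adjusted p of 0.291. The last 2 were well above background on all 3 I183M arrays and on no I183P array, so these folds are lower bounds on this scale. Neither would have passed the filter without the I183M arrays, where they are high, so their p-values are descriptions. After normexp correction with quantile scaling the log2 differences were -0.75 and -0.76.

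In delta against control, 23 long intergenic probes in 20 intervals were called, 8 higher and 15 lower. They were 0.286% of the 8055, beside 0.222% of all 36105 tested probes, so they were called at about the same rate as other probes. By direction, 0.072% of all tested probes were called higher and 0.15% lower. The median difference was 0.35 over the long intergenic probes and 0.10 over all, and 1409 (17.5%) had an unadjusted p under 0.05, against 15.5% of other probes. The detected share on delta 2 was 63.8%, and without it the medians were 0.14 and 0.05. With quantile normalization they were 0.01 and -0.02, a shift of the scale by over 0.1, and 22 probes were called, 6 higher and 16 lower. The split was 59 higher and 67 lower with normexp background correction and quantile normalization, and 14 higher and 15 lower with the percentile taken over probes on all arrays. Delta and I183M differed at 9 long intergenic probes, 6 higher and 3 lower in delta (0.112% of the 8055, beside 0.0969% of all, with 0.0526% higher and 0.0443% lower), and with the percentile taken over probes on all arrays at 3, of which 1 was higher. Delta and I183P differed at 2, both lower in delta (0.0248%, beside 0.0249% of all, with 0.00831% higher and 0.0166% lower), and with normexp and quantile normalization at 4, of which 2 were higher. Median differences were -0.04 and -0.01 over long intergenic and all probes against I183M and 0.26 and 0.11 against I183P. These 3 comparisons share the delta arrays.

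The count of 23 rested on single arrays. It was 0 without control 2, 7 without control 3, 13 without I183M 2, 8 without I183M 3, 6 without I183P 1, 12 without I183P 2, 87 without I183P 3, 6 without delta 2 and 4 without delta 3, and it was 5 with control 1 in the fit. With the slide as a block, which links delta to control through the I183P arrays alone, 0 long intergenic probes were called by limma in any comparison, while 788 had an unadjusted p under 0.05 in delta against control. The count of 9 against I183M was 0 without control 2, control 3, I183M 2, I183M 3, I183P 1, delta 1 or delta 3, 3 without I183P 2, 1 without delta 2 and 42 without I183P 3. The count of 2 against I183P was 4 without I183M 1, 15 without I183P 3 and 0 without any other array. Beside these counts no shares over all probes are given.

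The clearest agreement between probes was at chr17:32035750-32056000 on the reverse strand, together with chr17:32044823-32045974, an interval nested in it. Probe A_30_P01021437 of the longer interval read 1.32 and 1.46 on control 2 and 3, 0.19, -0.50 and -0.33 on I183M 1 to 3, -0.21, -0.25 and -0.08 on I183P 1 to 3 and -0.20, -0.01 and -0.25 on delta 1 to 3. The control arrays stood above all 9 others, and the 3 other groups overlapped one another. Delta was lower than control by a log2 difference of -1.54 (SE 0.19, adjusted p = 0.0315). The second R probe of that interval, A_30_P01019807, differed by -1.50, and the 3 R probes of the nested interval by -1.44, -1.49 and -1.53, of which the last had an adjusted p of 0.0512. Both F probes of the longer interval differed by 0.17 and 0.18, with neither called. On control 1 the 5 R probes read between 0.44 and 1.68.

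The same R probes were low in both substitution lines, without passing the test there. A_30_P01021437 differed from control by -1.60 in I183M (adjusted p = 0.143) and by -1.56 in I183P (adjusted p = 0.0835), and A_30_P01019807 by -1.67 and -1.59. All I183M arrays and 2 of the 3 I183P arrays shared slide 1 with the control arrays. The 3 comparisons share the control arrays, and with control 1 in the fit A_30_P01021437 in delta differed by -1.43 (adjusted p = 0.134). Nkx2-5 itself also lies on mouse chromosome 17. That chromosome holds 899 of the 16181 long intergenic probes, and 28.9% of its probes were on every array, against 23.2% of all. Of the 23 called in delta, 5 were on it, of which 4 are R probes of the nested pair of intervals and the remaining 1 was A_30_P01032842 at chr17:3206316-3208050, lower in delta with a difference of -1.17 (adjusted p = 0.0295). The other F probes there differed by -1.46 and -1.57. Whether a place on the chromosome of Nkx2-5 bears on the 5 calls was not tested.

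An interval with agreeing probes in the opposite direction was chr19:19005109-19008657 on the reverse strand. A_30_P01031958 read -1.80 and -2.13 on control 2 and 3, -0.97, -0.83 and -0.75 on I183M 1 to 3, -0.63, -0.83 and -0.80 on I183P 1 to 3 and -0.34, -0.54 and -0.50 on delta 1 to 3. On control 1, where dim probes tended to read higher, it read -2.00. The control arrays were lowest, the substitution lines overlapped each other, and the 3 delta arrays were highest. Delta exceeded control by 1.50 (SE 0.14, adjusted p = 0.0103), and with control 1 in the fit by 1.52 (adjusted p = 0.0488). The second probe, A_30_P01025044, was higher by 1.13 (adjusted p = 0.0115) and the third, A_30_P01022245, by 1.53 (adjusted p = 0.0553). I183M and I183P exceeded control at A_30_P01031958 by 1.11 (adjusted p = 0.143) and 1.21 (adjusted p = 0.0675).

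The smallest adjusted p in delta against control was shared by 2 single probes whose tested neighbours, all dimmer, did not follow. F probe A_30_P01018976 at chr15:92197603-92208534 read 1.58 and 1.50 on control 2 and 3, 0.47, 1.13 and 0.50 on I183M 1 to 3, 0.57, 0.76 and -0.28 on I183P 1 to 3 and -2.40, -2.33 and -2.43 on delta 1 to 3. The delta arrays lay far below every other array, and control 1 read 0.06. Delta differed from control by -3.93 (SE 0.31, adjusted p = 0.00777), from I183M by -3.09 (adjusted p = 0.0175) and from I183P by -2.74 (adjusted p = 0.0293). The 2 other F probes of the interval, dim at means of -3.15 and -3.30, differed from control by 0.10 and 0.51.

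R probe A_30_P01033314 at chr13:70745633-70776516 had the same shape. It read 3.02 and 2.90 in control, 2.02, 2.55 and 1.89 in I183M, 1.91, 2.22 and 1.16 in I183P and -0.96, -0.83 and -0.93 in delta. The delta arrays were again below all others. Delta differed by -3.87 from control (SE 0.30, adjusted p = 0.00777), by -3.06 from I183M (adjusted p = 0.0175) and by -2.67 from I183P (adjusted p = 0.0293). The 2 other R probes, at means of -1.19 and -3.33, differed from control by 0.21 and 0.29.

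Of the 15 probes called lower in delta than in control, 9 read lowest outside delta on I183P 3, the I183P array that shared slide 2 with delta. Over all tested long intergenic probes I183P 3 was the lowest of these 8 arrays for 15.6%. The 15 were chosen for a high control and a low delta signal, so the order of the other arrays is a description. Pde5a, which encodes a phosphodiesterase of cyclic GMP, read 4.19 and 4.17 in control, 3.09, 3.77 and 3.03 in I183M, 3.26, 3.38 and 2.37 in I183P and -0.08, 0.22 and 0.04 in delta, a difference of -4.12 (adjusted p = 0.00777). It too was lowest outside delta on I183P 3. With the slide as a block the differences from control were -2.98 for A_30_P01018976 and -2.96 for A_30_P01033314, and neither was called. The part of the slide was not tested beyond that.

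Others of the 9 were A_30_P01026357 at chr4:116790373-116797823 (F), lower in delta with a difference of -2.00 (adjusted p = 0.0236), A_30_P01030159 at chr5:92548501-92566401 (F), by -1.73 (adjusted p = 0.0378), and A_30_P01026552 at chr9:61071844-61072324 (F), by -1.23 (adjusted p = 0.0345). The other tested F probes of these intervals differed by 0.14 to 1.67 on chromosome 4, by -0.46 and -0.42 on chromosome 5 and by 1.22 and 1.58 on chromosome 9. These neighbours were dim, at means between -5.39 and -3.06, and those on chromosome 9 were above background on 3 arrays each. A_30_P01030929 at chr19:5841103-5845579 (F) was lower, with a difference of -1.56 (adjusted p = 0.0191) while its neighbour differed by 0.44. The brightest called probe, A_30_P01021070 at chr5:35975265-35982561 (R), averaged 6.37 in control and 5.50 in delta, a difference of -0.87 (adjusted p = 0.0494). It read 4.57 on control 1, where a brighter R probe of the interval read 5.70, against 7.31 and 7.32 on control 2 and 3. With that array, on which bright probes tended to read lower, in the fit the difference was -0.27 (adjusted p = 0.891). The 3 other tested R probes of its interval differed by -0.38, 0.26 and 0.61 and the 4 F probes by 0.20 to 1.09, none of them called.

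Of the called probes, 2 were not well above background on any delta array, so that their differences are lower bounds, taken on each delta array against the higher of the dimmest signal called above background and the probe's own signal, which was the higher on all 3. A_30_P01018087 at chr15:59966962-59972812 (F) read -1.98 and -2.42 in control and was at least 18.5-fold lower in delta (adjusted p = 0.0344). A_30_P01022754 at chr19:4994325-4994537 (R) read -2.56 and -2.97 in control and was at least 11.7-fold lower (adjusted p = 0.0309). Their size rested on the processing. With control 1 in the fit both were called, at an adjusted p of 0.0313 each. With the slide as a block the log2 differences were -2.93 (adjusted p = 0.325) and -2.97 (adjusted p = 0.308), and after normexp correction with quantile scaling they were -1.46 (adjusted p = 0.0108) and -1.01 (adjusted p = 0.0186). Neither has another tested probe in its interval. A_30_P01021915 at chr12:72103832-72116875 (R) was lower, with a difference of -1.73 (adjusted p = 0.0236), and its 8 other tested R probes differed by between -1.55 and 1.23.

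Among the probes higher in delta, F probe A_30_P01030188 at chr8:74333475-74384150 differed most. It read -4.43 and -3.79 on control 2 and 3, -2.99, -3.52 and -4.19 on I183M 1 to 3, -3.88, -3.29 and -4.02 on I183P 1 to 3 and -1.26, -0.99 and -0.71 on delta 1 to 3. The delta arrays stood above all other arrays used, but control 1 read -1.23. The difference from control was 3.12 (SE 0.38, adjusted p = 0.0295) without control 1 and 2.16 (adjusted p = 0.545) with it, and the other tested F probe differed by 0.72. Delta exceeded I183M by 2.58 (adjusted p = 0.0471), and against I183P this probe had the smallest p of those not called.

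F probe A_30_P01023905 at chr12:82495575-82516300 read -0.91 and -1.17 in control, -1.01, -1.67 and -1.31 in I183M, -0.08, -0.21 and 0.09 in I183P and 0.65, 0.73 and 0.77 in delta. I183P lay between the other groups, with no overlap. Delta exceeded control by 1.76 (SE 0.19, adjusted p = 0.0191) and I183M by 2.05 (adjusted p = 0.0175), while I183P exceeded I183M by 1.26 without passing the test (adjusted p = 0.291). The other F probe of the interval, bright at 5.62 in control, differed by 0.02 in delta. A probe of an overlapping interval on the same strand, A_30_P01020727 at chr12:82500406-82501102, exceeded I183M by 1.39 in delta (adjusted p = 0.0471), and by 0.82 with the slide as a block (adjusted p = 0.433). The other tested F probe of that overlapping interval differed by 0.18.

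R probe A_30_P01033032 at chr9:81537835-81583227 read -1.27 and -1.19 in control, -1.01, -0.54 and -0.85 in I183M, -0.54, -0.38 and -0.09 in I183P and 0.18, 0.40 and 1.00 in delta, a difference of 1.76 from control (SE 0.25, adjusted p = 0.0449). Its 2 tested neighbours, A_30_P01026333 and A_30_P01027016, differed by 1.77 (adjusted p = 0.1) and 1.15 (adjusted p = 0.119). On these neighbours I183P 3 read -1.30 and 1.68, within or beside the delta arrays and above I183P 1 and 2, which read -2.73 and -2.70 for the former and 0.65 and 0.83 for the latter. I183P 3 and the delta arrays share slide 2. On A_30_P01033032 itself I183P 3 read -0.09, above I183P 1 and 2 and below every delta array. Control 1, where dim probes tended to read higher, read 0.19. With control 1 in the fit the difference of A_30_P01033032 was 1.28 (adjusted p = 0.511). The part of the slide was not tested beyond the fit with the slide as a block, where the difference was 1.39 (adjusted p = 0.366).

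The other probes called higher in delta than in control were A_30_P01028970 at chr3:41143423-41359623 (F), by 1.22 (adjusted p = 0.0344), A_30_P01033110 at chr16:13468953-13474394 (F), by 0.90 (adjusted p = 0.0449), and A_30_P01029789 at chr6:117827499-117851478 (R), by 0.69 (adjusted p = 0.0449). With control 1 in the fit they differed by 1.57 (adjusted p = 0.247), 0.74 (adjusted p = 0.465) and 0.41 (adjusted p = 0.793). On A_30_P01029789 control 1, where dim probes tended to read higher, read -1.19, above every delta array. After normexp correction with quantile scaling that probe differed by 0.35 (adjusted p = 0.192). On chromosome 3 the 3 other tested F probes of the interval differed by 0.20 to 1.51 and its 3 tested R probes by 0.93 to 2.60. These F probes were above background on 4 to 6 arrays, at means between -4.54 and -4.13. The R probes were above background on 3 arrays each, at means of -5.76, -4.40 and -4.75. Among the delta arrays each R probe read highest on delta 2, the array with the high detected share.

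Against I183M, delta also had higher signal of A_30_P01028580 at chr14:67587065-67588705 (F). It read 2.66, 2.36 and 2.34 in I183M, 4.03, 4.01 and 4.05 in delta, 2.63 and 2.93 in control and 2.80, 2.91 and 3.55 in I183P. Delta exceeded I183M by 1.57 (SE 0.20, adjusted p = 0.0471), and the other F probes of this interval differed by 0.79 and 0.36. A_30_P01020787 at chr17:13806767-13824342 (R) was not above background on any I183M array and was at least 8.12-fold higher in delta (adjusted p = 0.0467), while after normexp correction with quantile scaling the log2 difference was 1.04 (adjusted p = 0.0329). It was above background on all 3 delta arrays and 1 control array. Without the delta arrays it would not have passed the filter, so its p-values are descriptions. The 3 other tested R probes of its interval differed by between -0.45 and 1.14. A_30_P01029807 at chr6:149307300-149322900 (R) was lower in delta with a difference of -1.70 (adjusted p = 0.0471). It was above background on 1 delta array. After normexp correction with quantile scaling the difference was -0.42 (adjusted p = 0.122). The 2 other tested R probes of its interval differed by -0.28 and 0.05.

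The agreement between probes of an interval was counted for all called probes. In delta against control, 19 of the 23 had at least 1 other tested probe on the same strand of the interval. For 8 of the 19, every such probe had the same sign and at least 50% of the log2 difference, for 2 some did and for 9 none did. Some of these neighbours were dim or above background on few arrays, so a lack of agreement there need not mean a lack of change. The 8 are not separate intervals. They include pairs of called probes, each counted as the other's neighbour, at chr17:32035750-32056000 R, at chr17:32044823-32045974 R nested in it, and at chr19:19005109-19008657 R. The others were at chr17:3206316-3208050 F and chr9:81537835-81583227 R. In delta against I183M, 0 of 9 had every other probe in agreement, 2 had some and 7 had none, and in delta against I183P both had none. Over all pairs of probes on every array, 3249 pairs on the same strand of 771 intervals, the differences between delta and control correlated at 0.48, and over 1900 pairs on opposite strands of 339 intervals at 0.17. In the other 5 comparisons the same-strand value ran from 0.27 to 0.54 and the opposite-strand value from 0.00 to 0.14. Pairs share arrays and often an interval, and these values are descriptions.

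When the tested probes of a strand of an interval were averaged before the fit, an alternative chosen after seeing the data, 13 strands were called in delta against control, 7 of them with at least 2 probes. No share over all features of that fit is given, so the count does not set these strands apart from other probes. In 3 of the 7 strands with at least 2 probes, chr15:92197603-92208534 F, chr13:70745633-70776516 R and chr12:82495575-82516300 F, the average was carried by the 1 called probe described above, whose neighbours differed little or in the other direction. The others included chr19:19005109-19008657 R, higher by 1.39 (SE 0.11, adjusted p = 0.00835), chr17:32035750-32056000 R, lower, with a difference of -1.52 (adjusted p = 0.0297), and chr17:32044823-32045974 R, lower, with a difference of -1.49 (adjusted p = 0.0401). In I183P against control 1 strand was called by this measure, chr19:19005109-19008657 R, higher by 1.08 (SE 0.11, adjusted p = 0.0342). An interval not called by single probes was chr8:122843176-122844282 F, lower in delta with a difference of -1.62 over 2 probes (adjusted p = 0.0435).

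Detection on every array of 1 group and none of the other was counted over all 16181 probes. In delta against control it held for 208 long intergenic probes on in delta and 28 on in control, where 0.963% and 0.11% of all 55681 probes did so. Among those on in delta and off in control, A_30_P01019442 at chr5:14943275-14944205 (F) read -3.41, 1.62 and -3.60 on delta 1 to 3, and A_30_P01018533 at chr5:15146475-15170100 (F) read -3.39, 1.38 and -4.01. Both were also on in 1 I183M array. Their mean rested on delta 2, and neither passed the test (adjusted p = 0.169 and 0.192). Without the delta arrays neither would have passed the filter, so these p-values are descriptions. In delta against I183P, A_30_P01019121 at chr12:81217572-81233910 (F), also on in all 3 I183M arrays and 1 control array, read 8.61 on delta 1 and -1.59 and -3.00 on delta 2 and 3, so that among the delta arrays it was near the level of the brightest on delta 1 alone. In I183M, A_30_P01021841 at chr7:68849401-68958266 (R) read -2.28, -2.06 and -1.35 on I183M 1 to 3. It was at least 29.6-fold higher than in control, where it was not above background, without passing the test (adjusted p = 0.734). Without the I183M arrays it would not have passed the filter, so its fold and p-value are descriptions. On control 1, where dim probes tended to read higher, the probe read 0.27, above all 3 I183M arrays. In I183M against control the counts were 73 on in I183M and 124 on in control (0.32% and 0.53% of all probes), and in I183P against control 13 and 24 (0.0539% and 0.171%). In I183P against I183M they were 16 and 98 (0.108% and 0.366%), in delta against I183M 167 and 5 (0.726% and 0.0233%) and in delta against I183P 76 and 8 (0.404% and 0.0216%). Both delta and I183M include an array with a high detected share, while these counts require every array of a group. On slide 2 the detected shares were 43.3% on I183P 3 and 37.4%, 63.8% and 41.8% on delta 1 to 3. On slide 1 they lay between 29.1% and 39.8%, apart from I183M 1 and control 1. The part of the slide in these counts was not tested.

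Non-coding RNAs that have a gene symbol were read for comparison. Of 47 listed, 27 were found on the array by accession or symbol and 23 were tested, and 0 passed the limma test in any of the 6 comparisons. In delta against control 5 of the 23 had an unadjusted p under 0.05, a share near the 17.5% of long intergenic and 15.5% of other probes. The probe for Kcnq1ot1, an imprinted antisense RNA, came closest in delta against control, with a log2 difference of 0.65 (SE 0.10, adjusted p = 0.0512). Terc, the RNA component of telomerase, differed by 1.11 (adjusted p = 0.142) and Ftx, a non-coding RNA near Xist, by 0.51 (adjusted p = 0.276). Mhrt, a non-coding RNA from the heart myosin locus, differed by -1.05 (adjusted p = 0.206), and Meg3, an imprinted non-coding RNA, by -0.62 (adjusted p = 0.244).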

How the data were processed

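The deposited intensity values per spot came, per the file headers, from Agilent Feature Extraction 11.0.1.1 (protocol GE1_1100_Jul11, layout on mm9), whose processed signal is made within each array. The submitters' processing notes name that software and limma, and give no version. The log2 values in the table deposited by the authors had array medians of 6.92 to 6.94 and correlated at 0.995 with normexp and quantile normalized signal, so they were used as an alternative. Its centring and exact steps stay unknown.

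Long intergenic probes were taken by probe name and interval name. Control spots and spots marked as outliers were dropped (96 probes were left out for them), the remaining spots were averaged by probe, and log2 intensity was taken relative to the 75th percentile of the same array. Probes well above background in 3 or more of 11 arrays entered 1 limma 3.58.1 fit (lmFit, eBayes, R 4.3.3) of all 4 groups, with Benjamini-Hochberg adjustment over all 36105 tested probes and a threshold of 0.05. Control replicate 1 was left out, with the fit of all 12 arrays as an alternative. The number of arrays limits the precision. On simulated data for delta against control with 36105 probes, 30% of changes of 1 log2 unit, 80% of 2, 74% of 3 and 92% of 4 were recovered, with 9 false calls. Those data were independent normal values for each probe, drawn with its spread within groups. They held no slide or array effect and no correlation between probes, so these figures are not error rates of the real comparison. Named probes are the 10 brightest, up to 5 intervals of each strand class (F alone, R alone, both) by brightness, for each comparison the 5 called probes at most that rose and that fell furthest and whose groups were apart (with the lowest p-values added to reach 3), for each comparison up to 3 by detection, the opposite strands of these, Nkx2-5, and up to 6 non-coding RNAs with a symbol by smallest p. Other called probes, Pde5a and the interval averages were named after their values were seen. Members and lists were chosen with earlier results of these data known. Gene symbols came from a RefSeq table of GRCm38.p6, which matched 27235 probes by accession and gave a symbol for 48 of the 70 A_30_P probes outside the rule, and none of its coordinates were used. The groups' replicate numbers did not pair the samples.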

Additional observations from a re-analysis of the deposited data

Results flagged for a closer look

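Control replicate 1, the array left out of the comparisons, had 98.937% of the long intergenic probes called well above background, while the 11 other arrays had between 29.1% and 63.8%. The median intensity of the long intergenic probes was 422 on that array and between 9.36 and 49.4 on the others.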

How the results depend on the processing

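No difference of a named probe that was called changed direction under the alternatives run. Calls of long intergenic probes in I183M against control, I183P against control, delta against control, delta against I183M and delta against I183P are given in that order. They were 0, 0, 23, 9 and 2 in the reported fit. With control 1 in the fit they were 0, 0, 5, 0 and 0. With normexp and quantile normalization they were 5, 7, 126, 32 and 4, with quantile normalization alone they were 0, 0, 22, 5 and 0, and they were 0, 1, 29, 3 and 2 with the percentile over probes on all arrays. They were 3, 2, 63, 18 and 4 in the deposited table, 0, 0, 6, 3 and 0 without a filter on dim probes, and 0, 4, 105, 19 and 4 when a probe had to be on every array of a group. They were 0 in each with the slide as a block, including 0 on slide 2 alone for delta against I183P, and 6, 10, 167, 61 and 10 with a trended, robust variance model. Chosen after seeing the data, they were 0, 1, 12, 4 and 0 without I183M 1 and delta 2, and 0, 1, 13, 3 and 1 with probes averaged by interval and strand. Leaving out each array in turn gave 0 to 3, 0 to 3, 0 to 87, 0 to 42 and 0 to 15. I183P against I183M gave 0 in all of these. The cause of these moves was not tested. Shares over all probes are not given for the alternatives, so the moves do not set long intergenic probes apart from the rest of the array.

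With the replicate block they were 0, 0, 3, 4 and 0, but same-numbered arrays of different groups correlated between -0.71 and 0.36 in their deviations over 15 pairs, and 2 of 11 arrays matched their own number best. Detected probes numbered 8072 in the reported setting, 10337 with control 1, 13908 by the scanner's other call (positive and significant), 5644 if on at least 6 arrays, 3757 if on every array, and 7043 to 8035 with an array left out. Intervals with 1 strand alone numbered 19, and 0 with control 1, 4 by the other call, 51 if the dark strand could be on 1 array, and 19 to 29 with an array left out. Of the values of named probes under these alternatives, 440 kept their side of the threshold, 229 lost their call and 28 gained one. Signal over background limits the remainder, since 24.4% of long intergenic probes were above it on no array.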
